A study of Mus musculus with 6 samples.

Results

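The 31 genes described here build cholesterol and fatty acids or control that synthesis. They comprise 7 genes of the mevalonate arm, 11 that make squalene or carry it to cholesterol, 6 regulators and 7 genes of fatty acid synthesis. They were chosen by gene symbol, and all 31 were found among the 17526 genes of the deposited table. The RNA came from crypts of the mouse small intestine, where stem cells, dividing progenitors and Paneth cells sit. The 3 knockout libraries came from mice with an intestinal epithelial knockout of Fpr2 (titled vko), and the 3 floxed control libraries from Fpr2f/f mice (titled flox, with the genotype given as WT). Fpr2 encodes a receptor for formylated peptides, and the comparison asks what its loss changes in the crypt. The labels name no Cre driver, no age and no number of animals per library. Whether replicate libraries are separate animals is unstated, so the p-values reflect spread among libraries that could be technical only. The deletion itself was not checked, since Fpr2 was not analysed here.

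Cholesterol is made from acetyl-CoA through mevalonate, farnesyl pyrophosphate and squalene, and fatty acids are made from the same acetyl-CoA by carboxylation, chain elongation and desaturation. Both routes are controlled by the SREBP transcription factors. SCAP escorts SREBP out of the endoplasmic reticulum when sterols are scarce, and the INSIG proteins hold the complex there when sterols are plentiful. SREBP binds sterol regulatory elements in promoters beside NF-Y, a factor that binds the CCAAT box. Dividing crypt cells need both products for new membranes.

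Total estimated counts ran from 16542933 to 16859902 in the knockouts and from 11108511 to 16695304 in the floxed controls. Of the table's genes, 12943 were high enough to test, all 31 synthesis genes among them. All 10 epithelial and crypt markers were present, with Epcam between 1048 and 1352 CPM (counts scaled to library size by the TMM method, as in all CPM values below). Of these, the stem cell marker Lgr5 was lower in every knockout, at 20.3 to 36.3 CPM, than in any floxed control, at 41.6 to 97.7 CPM (adjusted p = 0.153 by edgeR and 0.0150 by DESeq2). Olfm4, another stem cell marker, had 1046 to 1465 CPM in the knockouts and 1470 to 1959 CPM in the floxed controls (adjusted p = 0.596 by edgeR). Epcam was higher in every knockout, at 1338 to 1352 CPM, than in any floxed control, at 1048 to 1257 CPM. Its adjusted p was 0.650 by edgeR. Of the 10 markers, 6 had a positive and 4 a negative log2 fold change, knockout over floxed, with a median of 0.040. Defining markers of fat and connective tissue were near 0: Adipoq, Plin1 and Pdgfra did not exceed 0.0656 CPM, and Col1a1 did not exceed 1.40 CPM, in any library. Cidec, a lipid droplet gene on the same list, had 3.84 to 13.3 CPM. The summed level of the 12 T cell markers in the table was 69.1 to 89.8 CPM in the knockouts and 77.0 to 298.5 CPM in the floxed controls, with floxed controls 1 and 3 high. The 13 Paneth markers in the table took 3.46% ± 0.779 of all counts in the knockouts and 9.69% ± 3.08 in the floxed controls (SD, n = 3 each). The summed level of 13 proliferation genes was 1716 to 1957 CPM in the knockouts and 1027 to 1755 CPM in the floxed controls. In bulk RNA, fewer cells of a type and less RNA per cell cannot be told apart.

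No gene of sterol or fatty acid synthesis passed the test between knockout and floxed crypts. By edgeR's quasi-likelihood test, 0 of 31 had an adjusted p under 0.05 (Benjamini-Hochberg over all genes tested), where 0.0155% of all genes did. DESeq2 called 0 of the 31, where it called 2.69% of all genes (2.4% lower in the knockouts), and limma-voom called 0. Only Hsd17b7 had an unadjusted p under 0.05, 1 of 31 genes, against 13.7% of all genes tested (9.63% lower and 4.09% higher in the knockouts). Without floxed control 2 that count was 5, where 24.3% of all genes had such a p, and without knockout 1 it was 4, where 14.9% did. Without any one of the other libraries it was 0, where 6.10% to 15.6% did, so none of these counts stood above the share of all genes. The median log2 fold change of the 31 genes, knockout over floxed, was -0.15, beside -0.013 over all genes. It was -0.28 without knockout 1, -0.047 without knockout 3 and -0.060 without floxed control 2. The values ran from -0.71 for Scd1 to 0.27 for Acat2.

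Each interval covers a single gene in the main fit, unadjusted for the number of genes, and rests on the spread among these libraries. For 30 of the 31 genes the 95% interval of the fold change lay within 2-fold in both directions, as it did for 75.2% of all genes. For 11 genes, or 35.5%, it lay within 1.5-fold, as for 35.2% of all genes. The exception to the 2-fold bound was Scd1, the lowest of the set, whose log2 interval ran from -1.78 to 0.37. The log2 fold change was negative for 22 of the 31 genes, against 51.9% of all genes. With library size as the only scaling, 10 of 31 were negative and the median was 0.075. That scaling moved the median of all genes to 0.20, and the median of the 31 genes relative to it was -0.13 on the log2 scale, against -0.14 with TMM.

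**Figure D1:**
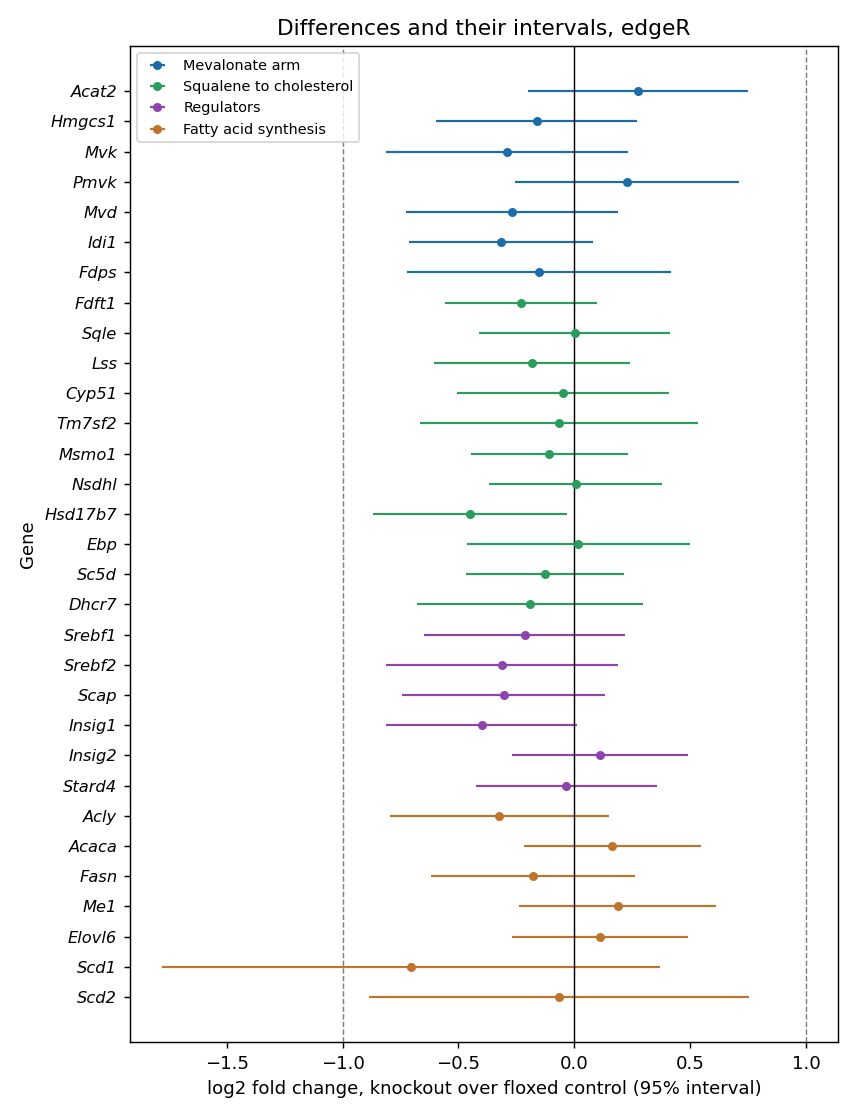
Log2 fold change of each gene, knockout over floxed control, with its 95% interval from edgeR (n = 3 libraries each). Dashed lines mark 2-fold in either direction. All intervals but that of Scd1 lie between them, and only that of Hsd17b7 leaves out 0.

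Promoter sequence was matched for 25 of the 31 genes in RefSeq (GRCm38.p6), over the 250 bases before each annotated start. Fdft1, Fdps, Scd1, Scd2, Sqle and Stard4 were not among those matched. For Acaca, Fasn and Srebf1 the window lies inside the annotated gene, and for Hsd17b7, Insig2, Lss and Mvk part of it does. All are kept in the shares below. The CCAAT box (CCAAT, or ATTGG on the other strand) stood in 18 of the 25 promoters, which is 72%, against 37% of 10383 promoters of tested genes. The sterol regulatory element core TCACNCCAC, on either strand, stood in 1 of 25, that of Hmgcs1, against 0.934% of the same promoters. Only exact matches to this pattern were counted, so a promoter without a match may hold a sterol element of other letters. The E-box CACGTG, a palindrome, stood in 3 of 25, or 12%, against 8.41%. Of the motifs searched, none overlapped another in the promoters shown, and a match is a description of letters, not a bound site. The 4 promoters below are shown because their genes recur in the results: Hmgcs1 with its sterol element, Mvk with 5 CCAAT boxes, Srebf2 as the main regulator, and Hsd17b7, which holds an E-box and 3 CCAAT boxes. Each runs 5′ to 3′ toward its start, with CCAAT boxes, sterol element and E-box in capitals.
Hmgcs1 (chr13:119690101-119690350, plus strand): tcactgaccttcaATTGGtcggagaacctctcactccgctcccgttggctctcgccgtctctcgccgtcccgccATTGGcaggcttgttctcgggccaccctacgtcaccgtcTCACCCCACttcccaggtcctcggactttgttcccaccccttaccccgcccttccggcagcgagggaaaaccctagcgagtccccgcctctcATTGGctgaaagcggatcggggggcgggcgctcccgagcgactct
Mvk (chr5:114444019-114444268, plus strand): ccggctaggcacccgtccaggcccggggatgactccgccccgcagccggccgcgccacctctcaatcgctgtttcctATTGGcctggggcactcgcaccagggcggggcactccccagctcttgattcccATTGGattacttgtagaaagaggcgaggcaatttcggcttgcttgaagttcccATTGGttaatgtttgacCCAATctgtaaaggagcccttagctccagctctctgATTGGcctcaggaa
Srebf2 (chr15:82147019-82147268, plus strand): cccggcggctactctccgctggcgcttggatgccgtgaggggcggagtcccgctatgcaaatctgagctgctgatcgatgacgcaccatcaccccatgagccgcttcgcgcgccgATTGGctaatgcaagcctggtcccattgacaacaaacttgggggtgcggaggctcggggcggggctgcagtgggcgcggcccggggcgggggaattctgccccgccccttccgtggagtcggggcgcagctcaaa
Hsd17b7 (chr1:169969206-169969455, minus strand): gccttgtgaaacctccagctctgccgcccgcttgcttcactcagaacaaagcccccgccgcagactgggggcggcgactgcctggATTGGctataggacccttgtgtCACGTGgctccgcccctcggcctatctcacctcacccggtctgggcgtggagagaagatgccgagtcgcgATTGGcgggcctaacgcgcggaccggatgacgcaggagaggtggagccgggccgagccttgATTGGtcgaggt

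In the mevalonate arm, which turns acetyl-CoA into farnesyl pyrophosphate, 5 of 7 genes had a negative and 2 a positive log2 fold change, with a median of -0.16. That median was -0.32 without knockout 1, -0.060 without floxed control 2 and 0.043 with library size alone. Hmgcs1, the synthase that makes HMG-CoA, had 130.3, 158.6 and 145.8 CPM in knockouts 1, 2 and 3, against 202.1, 125.2 and 159.3 CPM in floxed controls 1, 2 and 3. Floxed control 2 lay below every knockout and floxed control 1 above every other library, so the groups overlapped (log2 -0.16 ± 0.20, SE; adjusted p = 0.779 by edgeR). Without floxed control 1 the log2 value was 0.054. Idi1, the isomerase that makes the allylic building block of the pathway, had 20.3, 21.2 and 18.5 CPM in the knockouts and 30.0, 22.9 and 21.8 CPM in the floxed controls. The Idi1 groups did not overlap (log2 -0.32 ± 0.18, adjusted p = 0.472 by edgeR). Of the 3 genes in the whole set whose groups did not overlap, Idi1 was the only one of this arm, and all 3 were lower in the knockouts, where every knockout lay below every floxed control for 10.3% of all genes and above for 6.99%.

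Mvd, the decarboxylase of mevalonate pyrophosphate, had 37.1, 25.1 and 25.8 CPM in the knockouts and 29.4, 42.4 and 33.9 CPM in the floxed controls. Knockout 1 and floxed control 2 were its highest libraries, and the groups overlapped (log2 -0.27 ± 0.21, adjusted p = 0.624 by edgeR). Mvk, the mevalonate kinase, had the same order, with a log2 fold change of -0.29 ± 0.24. Pmvk, the next kinase of the route, and Acat2, the thiolase that joins the first 2 acetyl-CoA units, had log2 values of 0.23 ± 0.22 and 0.27 ± 0.21. Fdps, the farnesyl pyrophosphate synthase, was the most abundant synthesis gene per exon length, at 65.1 ± 17.7 CPM per kb in the knockouts and 72.3 ± 24.1 CPM per kb in the floxed controls (SD, n = 3 each). It ran from 73.5 CPM in floxed control 1 to 142.7 CPM in floxed control 2, a span within 1 group that was wider than the difference between the groups (log2 -0.15 ± 0.26).

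Among the 11 genes from squalene to cholesterol, 8 log2 fold changes were negative and 3 positive, with a median of -0.11. It was -0.27 without knockout 1, -0.047 without knockout 3, -0.0039 without floxed control 2 and 0.10 with library size alone. Hsd17b7, a keto reductase of sterol demethylation, had 18.8, 15.9 and 14.3 CPM in the knockouts and 26.1, 19.0 and 21.9 CPM in the floxed controls. Its groups did not overlap, though knockout 1 lay next to floxed control 2. The log2 fold change was -0.45 ± 0.19, with an unadjusted p of 0.0378 and an adjusted p of 0.329 by edgeR. Across the alternative settings it remained negative, from -0.66 to -0.16, and its adjusted p ran from 0.0902 to 0.863. Fdft1, the squalene synthase that commits the route to sterols, had 96.0, 87.0 and 87.5 CPM in the knockouts and 97.5, 107.7 and 112.1 CPM in the floxed controls. The Fdft1 groups also did not overlap (log2 -0.23 ± 0.15, adjusted p = 0.538 by edgeR); knockout 1 lay next to floxed control 1.

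Sqle, the squalene epoxidase and a rate-limiting enzyme, had 96.6, 82.7 and 71.2 CPM in the knockouts and 89.6, 94.9 and 65.8 CPM in the floxed controls. The groups overlapped over most of their ranges, and the 95% interval of the log2 difference was -0.41 to 0.41. Beside Sqle, the log2 values nearest 0 were those of Nsdhl, a sterol dehydrogenase, 0.0057 ± 0.17, and Ebp, a sterol isomerase, 0.018 ± 0.22. Cyp51, the lanosterol demethylase, and Msmo1, the methylsterol oxidase, had log2 values of -0.047 ± 0.21 and -0.11 ± 0.15. Tm7sf2, a sterol reductase, and Sc5d, a sterol desaturase, had -0.068 ± 0.27 and -0.13 ± 0.15. Lss, which closes the sterol ring, and Dhcr7, the last reductase, had -0.18 ± 0.19 and -0.19 ± 0.22.

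The regulators had a median log2 fold change of -0.26, with 5 of 6 values negative. The median was -0.43 without knockout 1, -0.14 without knockout 3, -0.16 without floxed control 2 and -0.038 with library size alone. Srebf2, which encodes the SREBP that chiefly drives sterol synthesis, had 274.5, 176.5 and 160.2 CPM in the knockouts and 217.9, 291.5 and 249.3 CPM in the floxed controls. Knockouts 2 and 3 lay below every floxed control, while knockout 1 lay above floxed controls 1 and 3 (log2 -0.31 ± 0.23, adjusted p = 0.592 by edgeR). Scap, the SREBP escort, had 106.8, 70.6 and 69.5 CPM in the knockouts and 89.2, 111.3 and 104.4 CPM in the floxed controls. It had the same layout as Srebf2, with knockout 1 high and knockouts 2 and 3 below every floxed control (log2 -0.31 ± 0.20, adjusted p = 0.539 by edgeR). Srebf1, whose products chiefly drive fatty acid synthesis, had 118.5, 87.2 and 81.7 CPM in the knockouts and 92.8, 131.3 and 109.2 CPM in the floxed controls. Its log2 fold change was -0.21 ± 0.20 (adjusted p = 0.693 by edgeR).

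Insig1, which encodes an anchor of the SREBP complex, had 50.0, 44.7 and 42.0 CPM in the knockouts and 66.5, 45.1 and 68.9 CPM in the floxed controls. Floxed control 2 lay among the knockouts, and the other floxed controls lay above them (log2 -0.40 ± 0.19, adjusted p = 0.373 by edgeR). Without floxed control 2 the log2 value was -0.56 (adjusted p = 0.0557), and without floxed controls 1 and 3 it was 0.076, against 1 control library. Over the alternatives the adjusted p of Insig1 ran from 0.0557 to 0.926. The high Insig1 libraries, floxed controls 1 and 3, were also those with high T cell markers, and the part of those cells in this result was not tested. Insig2, the second anchor, had a log2 value of 0.11 ± 0.17, and Stard4, a carrier of free cholesterol, had -0.035 ± 0.18.

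Of the 7 fatty acid genes, 4 had a negative and 3 a positive log2 fold change, with a median of -0.067. The sign of this median turned without floxed control 1 (0.037), floxed control 2 (0.16) or knockout 3 (0.13) and with library size alone (0.14), and it was -0.28 without knockout 1, -0.12 without knockout 2 and -0.20 without floxed control 3. Fasn, the fatty acid synthase, had 275.2, 201.5 and 175.1 CPM in the knockouts and 243.2, 269.6 and 224.7 CPM in the floxed controls. Knockout 1 was the highest library of all and knockouts 2 and 3 the lowest (log2 -0.18 ± 0.20, adjusted p = 0.753 by edgeR). Acly, which makes the cytosolic acetyl-CoA, had 145.1, 125.7 and 81.1 CPM in the knockouts and 161.3, 135.8 and 143.1 CPM in the floxed controls. Knockout 3 stood lowest and the groups overlapped (log2 -0.32 ± 0.21, adjusted p = 0.549 by edgeR). Acaca, the acetyl-CoA carboxylase, Me1, the malic enzyme that supplies NADPH, and Elovl6, an elongase, had log2 values of 0.16 ± 0.17, 0.19 ± 0.19 and 0.11 ± 0.17.

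The desaturases, which put the double bond into newly made fatty acids, varied most between libraries. Scd2 had 139.3, 135.3 and 51.6 CPM in the knockouts and 124.3, 148.2 and 68.8 CPM in the floxed controls. Knockout 3 and floxed control 3 were low for Scd2, so that 1 low library stood in each group (log2 -0.067 ± 0.37). Scd1 had 2.37, 1.502 and 0.896 CPM in the knockouts and 3.76, 1.18 and 2.95 CPM in the floxed controls, resting on 16.2 to 43.2 deposited counts per library. Floxed control 2 lay among the knockouts (log2 -0.71 ± 0.49, adjusted p = 0.571 by edgeR). The highest library was 2.87 times the lowest for Scd2 and 4.19 times for Scd1, and between 1.24 and 2.06 times for the other 29 genes.

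**Figure D2:**
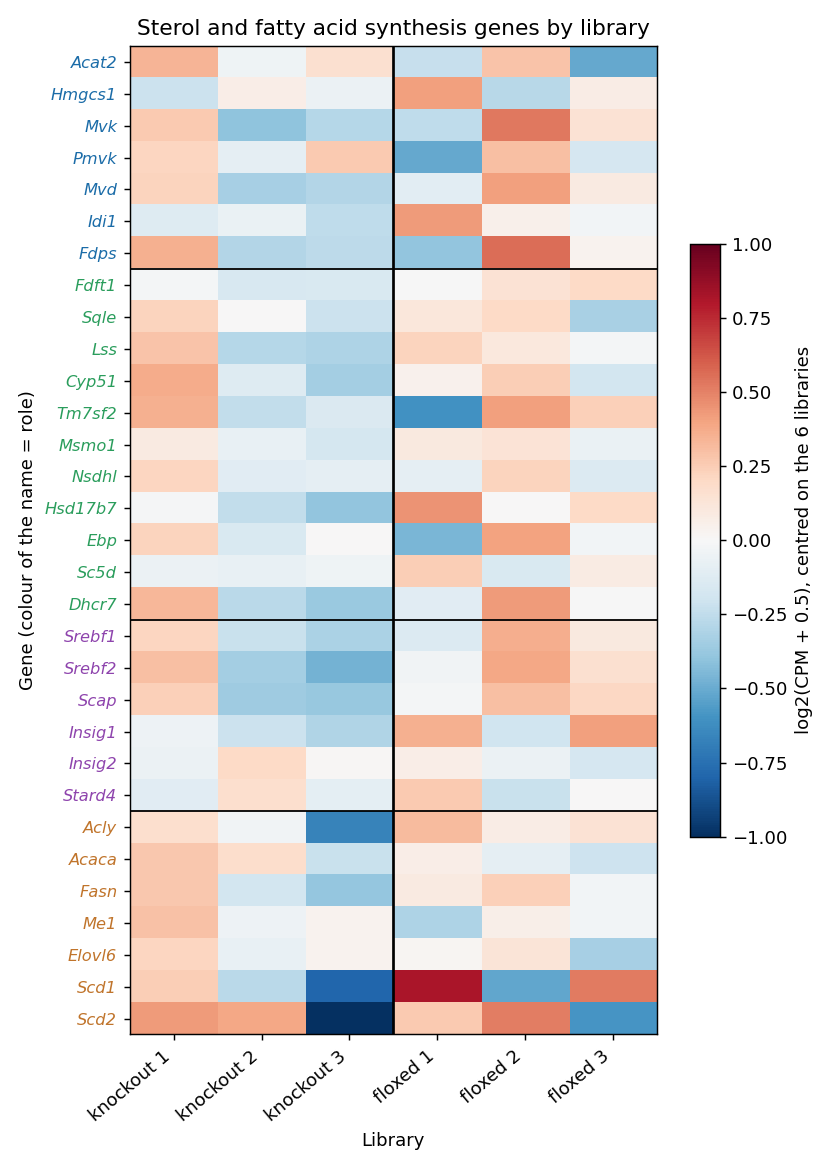
Level of each gene in each library as log2(CPM + 0.5), centred on the 6 libraries. Rows are grouped by role, with blue names for the mevalonate arm, green for squalene to cholesterol, purple for the regulators and orange for fatty acid synthesis. Knockout 1 and floxed 2 share red cells in much of the map. Knockout 3 holds the lowest value for 15 of the 31 genes, and for 21.1% of all genes tested.

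Per exon length, the paralogs differed in level in every library. Srebf2 stood at 40.1 ± 12.2 CPM per kb in the knockouts and 49.8 ± 7.28 CPM per kb in the floxed controls, and Srebf1 at 22.3 ± 4.62 CPM per kb in the knockouts and 25.8 ± 4.49 CPM per kb in the floxed controls (SD, n = 3 each). Insig1 stood at 16.9 ± 1.52 CPM per kb in the knockouts and 22.3 ± 4.86 in the floxed controls, and Insig2 at 6.12 ± 0.592 in the knockouts and 5.66 ± 0.475 in the floxed controls. Scd2 stood at 19.9 ± 9.08 CPM per kb in the knockouts and 20.9 ± 7.47 in the floxed controls, and Scd1 at 0.329 ± 0.153 in the knockouts and 0.544 ± 0.273 in the floxed controls. In each pair the lowest library of the higher paralog lay above the highest library of the lower one. After Fdps, the highest levels belonged to Ebp and Msmo1, and the lowest above Scd1 to Me1 and Hsd17b7. Single levels of 8 genes are uncertain, because over 10% of the 50-base stretches of their longest transcript also occur in transcripts of another gene in GENCODE M21. These shares were 52.6% for Acaca (with Gm5182), 45.9% for Acat2 (with Acat3), 32.8% for Me1, 30.7% for Fdft1, 30.5% for Idi1, 13.6% for Hmgcs1, 13.1% for Scap and 11.7% for Fdps. Exons of Fdps also overlap the annotated gene Gm43738 over 77.4% of their length, and those of Fdft1 overlap Ctsb over 20.9%.

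**Figure D3:**
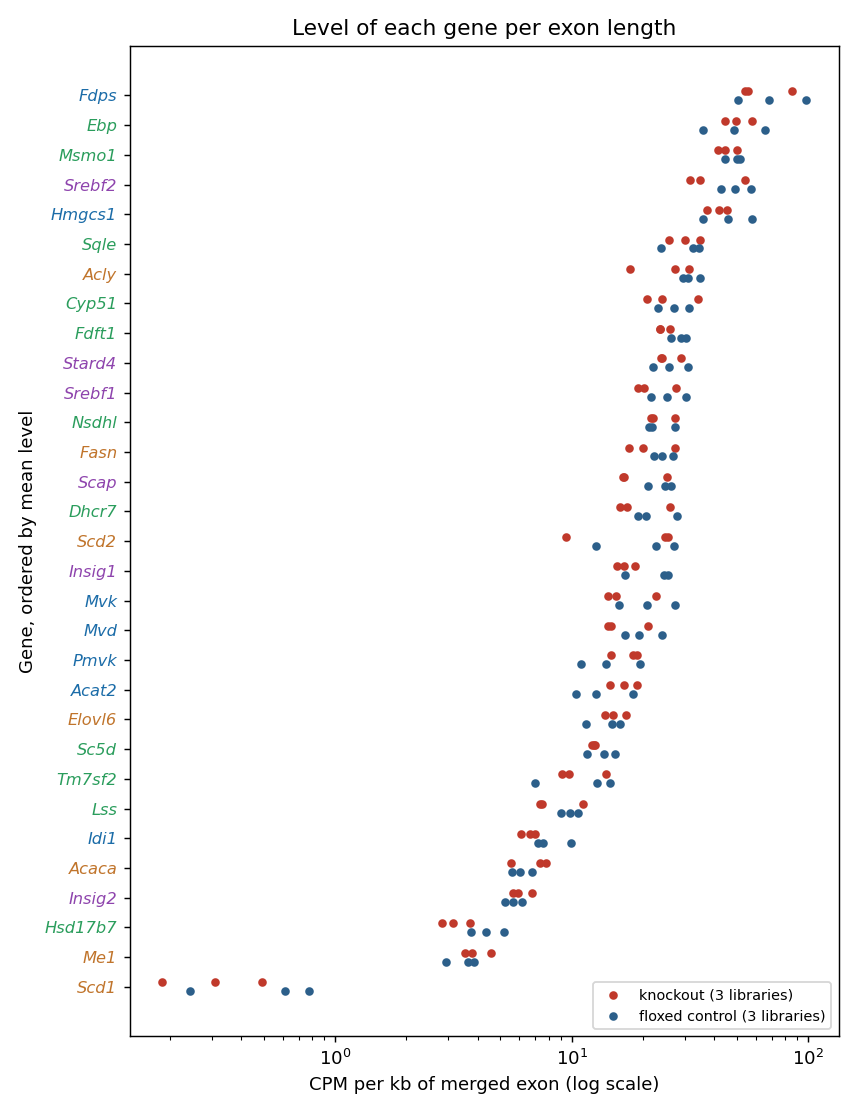
Level of each gene per kb of merged exon in the 3 knockout and 3 floxed control libraries, on a log scale, ordered by the mean of the 6 libraries. Name colours give the role as in the map of levels by library. Fdps and Scd1 stand at the ends of the order, and the groups lie over each other for most genes.

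A pattern shared by many of the 31 genes ran across the genotypes. Knockout 1 and floxed control 2 were both above the other 4 libraries for 17 of 31 genes, or 54.8%, where 10.9% of all genes tested were. The 17 comprised 4 genes of the mevalonate arm, 6 from squalene to cholesterol, 3 regulators and 4 of fatty acid synthesis. Mvk had 45.3 CPM in knockout 1 and 54.6 CPM in floxed control 2, against 28.4 to 41.6 CPM in the other 4 libraries. Dhcr7 had 86.6 CPM in knockout 1 and 92.2 CPM in floxed control 2, against 52.9 to 68.4 CPM in the rest. Cyp51 had 134.0 CPM in knockout 1 and 122.7 CPM in floxed control 2, against 81.6 to 106.5 CPM in the rest. The order was opposite for Hmgcs1 and Stard4, the 2 genes for which both libraries were below the other 4, as they were for 8.56% of all genes. With library size as the only scaling the counts were 11 above and 0 below of the 31, against 7.76% and 7.03% of all genes. These counts are a description of 2 libraries and carry no test.

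Knockout 1 and floxed control 2 had been set apart as a split on clock genes, so their clock levels are no separate observation. Of 15 tested clock genes, both were above the other 4 libraries for 3 and below them for 9. Arntl, the activator of the clock, is one of the 3 and Dbp, an output factor, one of the 9. Dbp had 4.46 CPM in knockout 1 and 6.82 CPM in floxed control 2, where the lowest of the other 4 libraries had 23.8 CPM. The mature enterocyte markers were low in both as well, at 5746 summed CPM over 14 genes in knockout 1 and 6725 in floxed control 2, against 8470 to 13139 CPM in the other 4. The labels give no hour of collection. The part of the clock, of enterocyte content or of another difference between these libraries in the pattern was not tested.

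Set within those libraries, the differences between genotypes were as follows. Between knockout 1 and floxed control 2, the median log2 difference of the 31 genes was -0.0060, with 17 negative. Among the other 4 libraries the knockouts were lower for 23 of 31 genes, with a median of -0.22. The matching share of all genes is not given here. In an edgeR fit of these 4 the median over all genes was 0.0086. There, 6 of 31 genes had an unadjusted p under 0.05, where 24.5% of all genes did. Srebf2 differed by -0.087 within the first pair and by -0.47 within the other 4. For Insig1 the values were 0.15 and -0.64, and for Hsd17b7 -0.017 and -0.65. Not all genes had this contrast: the values were -0.27 and -0.29 for Mvk and -0.20 and -0.097 for Fdps. The first value of each gene sets 1 library against 1. With the split as a term in the edgeR fit, 0 of 31 genes were called, where 0.00773% of all genes were, and Hsd17b7 alone had an unadjusted p under 0.05, where 15.3% of all genes did. The mean centred level of the regulators was 0.089, -0.13 and -0.26 in knockouts 1, 2 and 3, against 0.083, 0.095 and 0.12 in the floxed controls. That of the mevalonate arm was 0.15, -0.17 and -0.10 in the knockouts, against -0.094, 0.27 and -0.053 in the floxed controls.

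**Figure D4:**
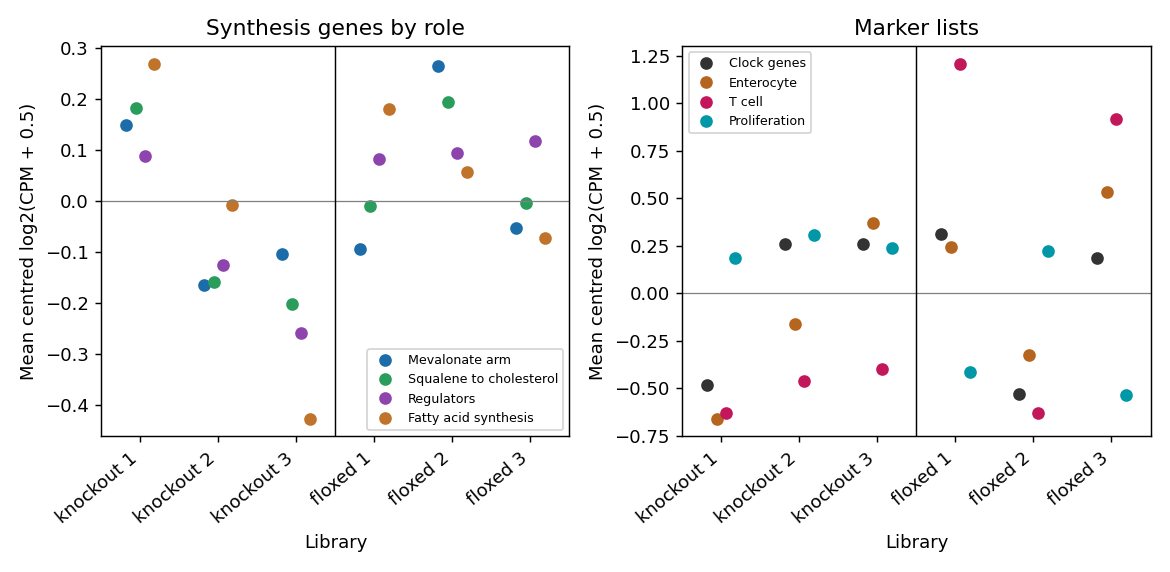
Mean centred log2(CPM + 0.5) in each library, for the 4 role groups (left) and for lists of clock, enterocyte, T cell and proliferation genes (right). For the mevalonate and squalene groups, knockout 1 and floxed 2 are the highest libraries, and in the same 2 libraries the clock and enterocyte lists are lowest.

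Other genes of the pathway were read from lists made for this comparison. Of 19 tested SREBP targets outside the set, edgeR and DESeq2 called 0, where they called 0.0155% and 2.69% of all genes. An unadjusted p under 0.05 by edgeR was held by 0, against 13.7% of all genes, and the median log2 fold change was -0.073. Leaving out 1 library moved that median between -0.25 (without knockout 1) and 0.028 (without knockout 3). The smallest p-values there belonged to Acsl3, an acyl-CoA synthetase (log2 0.32 ± 0.17), Aacs, which activates acetoacetate for lipid synthesis (-0.34 ± 0.19), and Slc25a1, the mitochondrial citrate carrier (-0.32 ± 0.20). These targets repeated the pattern across the genotypes: in 10 of 19, or 52.6%, knockout 1 and floxed control 2 were both above the other 4 libraries. Among the 17 genes that process SREBP the counts were 4 above, or 23.5%, and 2 below. In the list of 18 genes for sterol uptake, efflux and esterification they were 1 above and 4 below, and in the list of 18 tested genes of fatty acid oxidation the counts were 0 above and 3 below. The difference between these shares was not tested.

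Genes that process SREBP, 17 tested, had a median of -0.022, and edgeR called 0, where it called 0.0155% of all genes. Sec24d, a coat protein of the vesicles that leave the endoplasmic reticulum, was the only one with an unadjusted p under 0.05, against 13.7% of all genes. It had 85.1, 56.1 and 47.9 CPM in the knockouts and 132.5, 98.2 and 115.6 CPM in the floxed controls, with no overlap. Its log2 fold change was -0.87 ± 0.22 (adjusted p = 0.145 by edgeR and 0.0191 by DESeq2). Without floxed control 2 it passed the edgeR test (log2 -0.97, adjusted p = 0.0381), where 7.21% of all genes did. The adjusted p of Sec24d over the alternatives ran from 0.0113 to 0.806. Sec24d is one of several Sec24 coat genes, and the Paneth markers given above were low in the same 3 libraries; their part in its level was not tested. Nfyb, a subunit of the CCAAT-binding factor, had a log2 value of 0.25 ± 0.18.

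In the uptake, efflux and esterification list the median was -0.18, with 3 of 18 genes at an unadjusted p under 0.05, all lower, where 9.63% of all genes were. Soat1, which esterifies cholesterol for storage, had 20.03, 15.8 and 11.8 CPM in the knockouts and 40.9, 23.1 and 32.6 CPM in the floxed controls. Every knockout lay below every floxed control (log2 -1.02 ± 0.25; adjusted p = 0.136 by edgeR and 0.0153 by DESeq2). Osbpl2, an oxysterol-binding protein, had 48.5, 45.5 and 44.8 CPM in the knockouts against 68.3, 54.2 and 76.8 CPM in the floxed controls, again with no overlap. Scarb1, a receptor for lipoprotein cholesterol, was low throughout, at 2.60 CPM, 1.18 CPM and 1.68 CPM in the knockouts and 2.79 CPM, 3.74 CPM and 4.73 CPM in the floxed controls, with no overlap (log2 -1.04 ± 0.37). The edgeR adjusted p-values of Osbpl2 and Scarb1 were 0.210 and 0.247. Without floxed control 2, Soat1 and Osbpl2 passed the edgeR test (adjusted p = 0.0175 and 0.0344), where 7.21% of all genes did. Over the alternatives the adjusted p ran from 0.0138 to 0.806 for Soat1 and from 0.0344 to 0.836 for Osbpl2. Soat1 and Osbpl2 were highest in floxed controls 1 and 3, the libraries with high T cell markers. The B and plasma cell markers, 6 tested, were high in the same libraries, with mean centred log2 levels of -0.096, -0.65 and -0.75 in the knockouts and 1.15, -0.48 and 0.82 in the floxed controls. Paneth markers were lower in all 3 knockouts, as given above. The part of any of these cells in the levels of Soat1, Osbpl2 and Scarb1 was not tested.

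Of 18 tested genes of fatty acid oxidation, the opposing route, 0 had an unadjusted p under 0.05, against 13.7% of all genes. By edgeR and DESeq2 0 were called, against 0.0155% and 2.69% of all genes, and the median was 0.037. Ehhadh, a peroxisomal enzyme, and Etfdh, which passes electrons to the respiratory chain, had log2 values of -0.21 ± 0.14 and 0.19 ± 0.14.

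**Figure D5:**
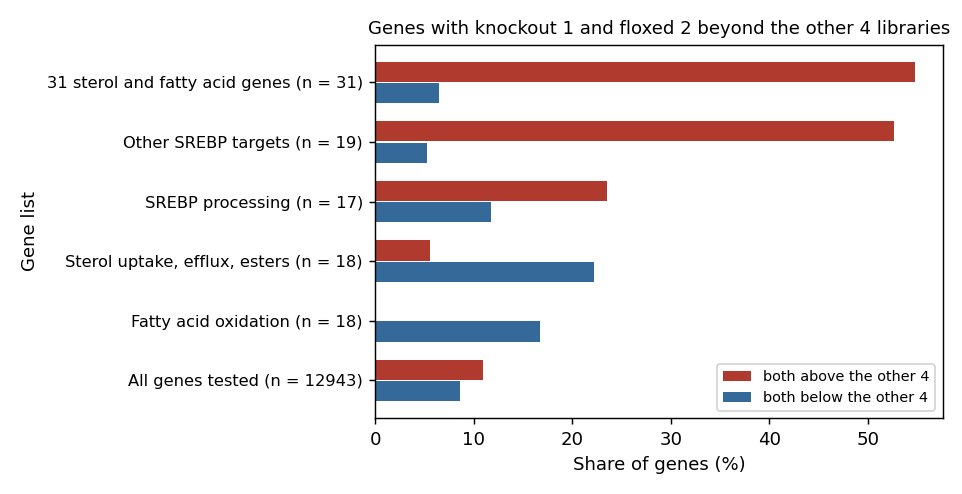
Share of the genes of each list for which knockout 1 and floxed control 2 are both above (red) or both below (blue) the other 4 libraries. The share above is 54.8% for the synthesis genes and 52.6% for the other SREBP targets, beside 10.9% of all genes tested.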

How the data were processed

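Crypt RNA of 6 libraries was sequenced as 50-base single-end reads, per the labels' protocols. The authors deposited estimated counts per gene, without normalisation, as the files' values show, and 31.1% to 35.2% of the values per library are not whole, so they were rounded. The submitters' processing notes name mm10; no source used here gives the aligner, counter, annotation or use of strand, so reads of overlapping genes cannot be told apart.

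Genes passing filterByExpr were fitted with edgeR 4.0.16 in R 4.3.3 (TMM, glmQLFit with robust estimation, glmQLFTest, adjusted p under 0.05). Intervals are 95%, log2 levels add 0.5 CPM, and the biological coefficient of variation was 20.3%. DESeq2 1.42.0 and limma 3.58.1 were alternatives. The edgeR test was also run on simulated counts, with the outcome not given here. Exon lengths came from GENCODE M21, and figures from matplotlib 3.10.9 in Python 3.11.15.

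The genes and lists were chosen with earlier results of these data known. Values per library are given for Hmgcs1, Sqle, Srebf1, Srebf2, Insig1, Fasn, Scd1, genes with an unadjusted p under 0.05, and the 2 smallest p-values of each role; the 3 smallest of each pathway list are named, except 2 genes that are not reported here. Fdps, Mvk, Cyp51, Dhcr7, Scd2, Arntl and Dbp were added after their values were seen.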

Additional observations from a re-analysis of the deposited data

How the results depend on the processing

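None of the 31 synthesis genes was called under any of the 17 alternatives. Of their 527 log2 values, 479 kept their direction and 48, in 20 genes, reversed; the cause was not tested. Genes called over the whole table, 2 in the main fit, numbered 0 with DESeq2 size factors, 0 with TMM without the 50 most abundant genes, 342 by DESeq2, 1 by limma-voom, 67 with no filter, 1 with the knockout 1 and floxed 2 split as a term, 920 without those libraries, 12 without floxed 1 and 3, 13 with library size alone, and 0 to 955 leaving out 1 library (955 without floxed 2). Whether replicate numbers pair the libraries is unstated. Deviations from the group mean correlated at -0.18, -0.27 and 0.068 for same-numbered libraries and from -0.14 to 0.38 for the others. Because these deviations are centred within so few libraries, they cannot decide it. A replicate block gave 39 calls. Synthesis genes with an unadjusted p under 0.05 numbered 0 with TMM without the top 50, DESeq2, the block and library size alone, 6 without knockout 1 and floxed 2 (24.5% of all genes), and 0 to 5 leaving out 1 library (6.10% to 24.3% of all genes).

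The alternative of library size alone was chosen after seeing the data. It gave medians of 0.075 for the 31 genes, 0.15 for other SREBP targets, 0.19 for SREBP processing and 0.043 for sterol uptake, efflux and esterification. It reversed Hmgcs1 (0.043), Fdps (0.075), Lss (0.023), Cyp51 (0.16), Tm7sf2 (0.17), Msmo1 (0.10), Sc5d (0.083), Dhcr7 (0.026), Srebf1 (0.0094), Stard4 (0.18), Fasn (0.033), Scd2 (0.14) and Ehhadh (0.011). Without floxed 1 and 3, against a lone control assumed to vary like the other libraries, the reversed values were Acat2 (-0.067), Hmgcs1 (0.27), Pmvk (-0.10), Sqle (-0.12), Nsdhl (-0.15), Ebp (-0.31), Sc5d (0.15), Insig1 (0.076), Stard4 (0.28), Elovl6 (-0.0061) and Scd1 (0.49), and the uptake, efflux and esterification median was -0.042. Sqle was also -0.0042 with a filter of 1 CPM, -0.00058 with the split as a term and -0.0098 without knockout 1 and floxed 2.

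Leaving out 1 library gave reversals within these ranges: Hmgcs1 -0.31 to 0.054, Fdps -0.40 to 0.14, Sqle -0.11 to 0.11, Cyp51 -0.28 to 0.10, Tm7sf2 -0.29 to 0.15, Nsdhl -0.11 to 0.14, Ebp -0.14 to 0.27, Stard4 -0.14 to 0.13 and Scd2 -0.29 to 0.27. The median of the 31 genes ran from -0.28 to -0.047, that of SREBP processing from -0.16 to 0.0014, of uptake, efflux and esterification from -0.23 to -0.082 and of fatty acid oxidation from -0.065 to 0.16. Calls ran from 0 to 1 for SREBP processing, 0 to 3 for uptake, efflux and esterification and 0 to 1 for fatty acid oxidation. The upper counts came without floxed 2, where 7.21% of all genes were called. Each list had 1 call without knockout 1 and floxed 2, where 7.06% of all genes were called. The first 2 lists had 1 by DESeq2, where 2.69% were. Scd1, at 16.2 to 43.2 counts per library, is limited by depth.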
